A study of Mus musculus with 12 samples.

Results

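Neuro-2a, a mouse neuroblastoma line (ATCC), was depleted of the transcript of Rbmxl1 and set against a scramble control, 4 libraries each, which are 8 of the 12 RNA-seq libraries of the series. All groups received 1 µg of a GFP plasmid (pCAGGs-linkB-IRES-GFP) together with pCAG-miR30 plasmids, which express an artificial microRNA from a miR30 backbone, by lipid-mediated transfection of 1 well per condition. The scramble libraries (miScramble) had 3 µg of the scramble plasmid, the Rbmxl1 knockdown libraries (miRbmxl1) a pool of 2 plasmids against Rbmxl1, and the Rbmx knockdown libraries a pool of 3 plasmids against Rbmx. The Rbmx knockdown libraries enter the fit behind every call, which pools the spread of all groups. They are also used for side-by-side values and a direct comparison. The labels give 3 µg of microRNA plasmid for every condition and 1 µg of each plasmid in the pools, and do not say how the amount was made up in the pool of 2. GFP-positive cells were sorted 48 hours after transfection and total RNA was sequenced after removal of ribosomal RNA. The knockdown is therefore transient, in 1 cell line, in cells chosen for the GFP plasmid and not for the microRNA plasmid, and by a pool whose members were not tested apart. Replicates are numbered 1 to 4 in every group, and each knockdown library was compared with the scramble library of its number. Of 55401 gene identifiers, 17569 had enough reads to be tested.

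RBMX, also called hnRNP G, is an X-linked nuclear RNA-binding protein with an RNA recognition motif near its start and a region rich in arginine, serine and glycine behind it. It binds pre-mRNA, takes part in the choice of splice sites together with factors such as Tra2 and the SR proteins, and has been linked to the splicing of very long exons, to sister chromatid cohesion and to the DNA damage response. RBMXL1 is a retrocopy, a gene that arose when an Rbmx mRNA was copied back into an autosome, so that its coding sequence lies in 1 uninterrupted exon and encodes a very similar protein. The title of the series names compensation by this retrocopy in an RBMX-associated neurodevelopmental syndrome, and the comparison asks what its loss alone changes.

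How alike the genes are bears on every count assigned to them. In GENCODE M21 on GRCm38, Rbmxl1 (ENSMUSG00000037070, chr8:78505269-78508898, minus strand) has 2 exons with the start codon in exon 2, and Rbmx (ENSMUSG00000031134, chrX:57383530-57393036, minus strand) is a gene of several exons. Over 1164 aligned coding bases the genes share 1058 (90.9%). The opening 150 coding bases, which begin at the start codon, are shown because they hold 13 of the 106 differing bases. The differing bases are in capitals. In Rbmxl1 this stretch is chr8:78506563-78506712, and in Rbmx it crosses introns.
Rbmxl1: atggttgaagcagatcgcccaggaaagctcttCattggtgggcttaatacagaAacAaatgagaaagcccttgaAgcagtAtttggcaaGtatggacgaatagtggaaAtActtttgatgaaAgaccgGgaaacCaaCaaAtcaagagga
Rbmx: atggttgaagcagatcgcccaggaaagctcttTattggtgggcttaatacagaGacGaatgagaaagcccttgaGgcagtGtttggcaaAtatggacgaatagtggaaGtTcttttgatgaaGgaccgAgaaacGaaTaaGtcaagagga
Per the rows of the deposited files, reads with several alignments were not assigned to any gene, so the counts of both genes rest on reads that cover a difference and are uncertain to that extent.

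The targeted gene was lower in every knockdown library. Rbmxl1 was at 31.3, 36.7, 34.2 and 34.2 CPM in scramble replicates 1 to 4 and 16.7, 12.9, 14.7 and 12.3 CPM in knockdown replicates 1 to 4, where CPM is counts per 1000000 reads in genes after scaling of the libraries. The groups did not overlap, and the means were 34.1 ± 2.21 CPM in scramble and 14.2 ± 1.99 CPM in the knockdown (SD, n = 4; log2 fold change −1.27 ± 0.09, adjusted p = 3.2e-06, edgeR quasi-likelihood F-test with the replicate number as a block, Benjamini-Hochberg over the 17569 genes). Its fold change in fits that each left out 1 library or 1 replicate number ran from −1.41 to −1.19, and it was called in all of them. In bulk RNA, fewer cells that express a gene and less RNA per cell cannot be told apart. Rbmx, the parent gene, went the other way. Its level was 57.6, 67.8, 72.2 and 73.3 CPM in scramble replicates 1 to 4 and 81.9, 90.0, 85.3 and 88 CPM in knockdown replicates 1 to 4, all knockdown libraries above all scramble libraries (log2 fold change 0.36 ± 0.07, adjusted p = 0.0165). Without the block the adjusted p of Rbmx was 0.444, and its call was lost in fits without replicate number 1 or 4, without any 1 of the 4 scramble libraries and without knockdown library 1 (adjusted p from 0.0534 to 0.0767), over left-out fits with fold changes from 0.29 to 0.41. The CPM of both genes together came to 102 ± 8.69 in scramble and 100.5 ± 1.8 in the Rbmxl1 knockdown (SD, n = 4). In the Rbmx knockdown, which shares the scramble libraries, Rbmxl1 was at 34.2, 37.6, 38.3 and 34.4 CPM and Rbmx at 22.2, 24.7, 31 and 32.6 CPM.

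**Figure D1:**
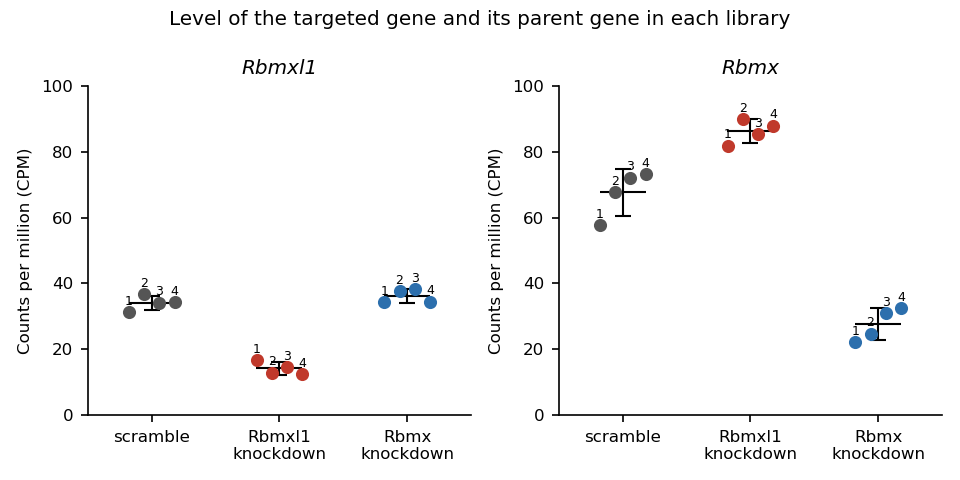
CPM (vertical axis, linear) of Rbmxl1 and Rbmx in each library of the 3 groups; points are libraries with their replicate number, the horizontal bar is the mean of 4 and the vertical bar 1 SD. Rbmxl1 lies at 12.3 to 16.7 CPM in its own knockdown against 31.3 to 36.7 in scramble, and Rbmx is higher in all 4 Rbmxl1 knockdown libraries than in any scramble library.

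Over all genes the knockdown was followed by many small changes. With the block, 783 of 17569 genes were called at an adjusted p under 0.05 (4.46%), 396 higher (2.25%) and 387 lower (2.2%), and 3479 genes had an unadjusted p under 0.05. The median size of a called change was 0.32 on the log2 scale (quartiles 0.26 and 0.44), and 27 genes were past 2-fold, 19 of them higher. Of the 783 genes, 768 moved the same way in 4 of 4 pairs, and in 358 the 4 knockdown and the 4 scramble libraries did not overlap, against 996 of all genes tested (5.67%). The calls rest on the replicate block: the fit without it called 1 gene (0.00569%), which was Rbmxl1, and 1487 genes had an unadjusted p under 0.05 there. That fit also left in the difference between replicates 1 and 2 and replicates 3 and 4. A block by these sets alone was not fitted, so matching by number and removing that difference cannot be told apart. The 8 libraries alone gave 426 calls (220 higher and 206 lower), and DESeq2 gave 1279. The calls also move with single libraries. Left out one by one, the replicate numbers gave 188, 695, 107 and 100 calls, the scramble libraries 239, 196, 126 and 298, and the knockdown libraries 231, 1032, 341 and 321, in the order of their numbers. In the 8 libraries, the leading principal component held 40.1% of the variance and set replicates 1 and 2 apart from 3 and 4 in both groups, and on the next (16.1%) knockdown replicate 2 lay nearest to the scramble libraries. Replicates 1 and 2 alone gave 30 calls and replicates 3 and 4 alone 992. All 783 genes had the sign of the full fit in the former and 782 in the latter, which is part of how they came to be called. A test of whether the effect differed between these sets called 0 genes with edgeR (1468 at an unadjusted p under 0.05), 0 with limma-voom and 42 with DESeq2. The 8 libraries held 43.1 to 52.2 M reads in genes (1 M is 1000000 reads), and transcripts of the mitochondrial genome took 1.02% to 1.36% of them.

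**Figure D2:**
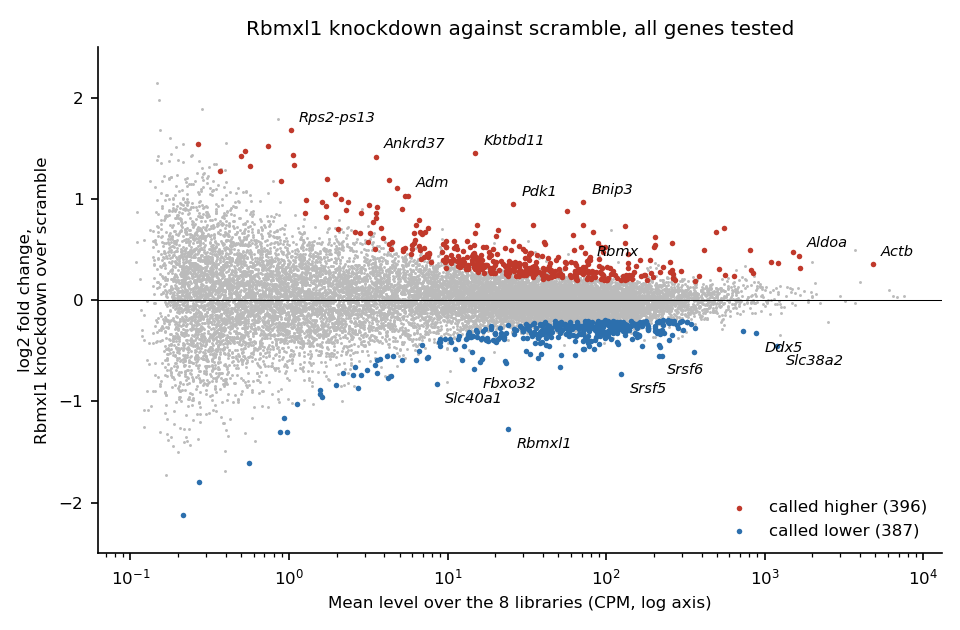
Mean level over the 8 libraries (CPM, log axis) against the log2 fold change of Rbmxl1 knockdown over scramble from the fit with the replicate block; each point is 1 of the 17569 genes tested, red where called higher (396), blue where called lower (387), and 1 gene lies beyond the vertical axis. Rbmxl1 is the lowest called point above 10 CPM, and most calls lie within 1 log2 unit of 0.

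Transcripts induced when oxygen is low had the largest shares of called genes among the gene lists. Cells sense oxygen through prolyl hydroxylases (the Egln genes), which mark the alpha subunits of the hypoxia-inducible factor HIF for degradation through VHL. When hydroxylation slows, HIF binds DNA at a core of ACGTG or GCGTG and raises genes for glucose uptake, glycolysis, lactate export, pH control, mitophagy and collagen hydroxylation. Of 39 tested hypoxia targets outside glycolysis, 16 rose and 1 fell (43.6% called, against 4.46% of all genes), with a median log2 fold change of 0.36 against 0.007 over all genes. Of 17 tested identifiers of glycolytic enzymes, of which 2 carry the symbol Aldoa, 10 rose and 0 fell (58.8%), with a median of 0.44. The genes that make up the sensor were mostly not called: of 11 HIF subunits, hydroxylases and VHL complex members, Egln3 alone rose, the list median was 0.006, and Hif1a had a log2 fold change of −0.021 ± 0.06 (adjusted p = 0.895). These lists were drawn up with earlier results of these data known, so their counts describe and do not test.

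Ankrd37, an ankyrin-repeat gene used as a hypoxia marker, had the largest fold change among the called genes of the list. It was at 2.35, 2.12, 1.37 and 1.64 CPM in scramble replicates 1 to 4 and 7.96, 6.17, 3.54 and 3.00 CPM in knockdown replicates 1 to 4, with no overlap between the groups (log2 fold change 1.42 ± 0.19, adjusted p = 0.0015). Bnip3, a mitochondrial outer-membrane protein that recruits the autophagy machinery, was at 72.8, 94.6, 18.9 and 22 CPM in scramble replicates 1 to 4 and 134, 117, 77.9 and 35.5 CPM in knockdown replicates 1 to 4. It was higher in the knockdown in each pair, while the groups overlapped (log2 fold change 0.97 ± 0.20, adjusted p = 0.0157; fold change 0.64 without replicate number 3). Pdk1, the kinase that shuts pyruvate out of the mitochondrion by inhibiting pyruvate dehydrogenase, was at 26.6, 33.5, 7.41 and 8.4 CPM in scramble replicates 1 to 4 and 44.5, 43.4, 29.1 and 14.2 CPM in knockdown replicates 1 to 4. Pdk1 too was higher in each pair (log2 fold change 0.95 ± 0.20, adjusted p = 0.0173). In scramble itself both genes differed between the replicate sets by more than the knockdown moved them: replicates 1 and 2 had 72.8 and 94.6 CPM of Bnip3, and replicates 3 and 4 had 18.9 and 22. What sets them apart is not given in the sources used here, and its part in the result was not tested beyond the comparison within numbers. The secreted peptide adrenomedullin (Adm) rose from 3.82 to 7.39 CPM (1.03 ± 0.17) and the oxygen-sensing hydroxylase Egln3, itself a HIF target, from 1.48 to 3.25 CPM (0.97 ± 0.23). Transport followed the same direction. The lactate exporter Slc16a3 (MCT4) was at 448, 602, 323 and 341 CPM in scramble replicates 1 to 4 and 845, 669, 751 and 476 CPM in knockdown replicates 1 to 4 (log2 fold change 0.72 ± 0.15, adjusted p = 0.0181). All 4 pairs rose, and knockdown replicate 4 lay below scramble replicate 2, so the groups overlapped. The glucose transporters Slc2a1 (GLUT1) and Slc2a3 (GLUT3) rose with log2 fold changes of 0.67 ± 0.14 and 0.49 ± 0.10, and the extracellular carbonic anhydrase Car12 with 0.56 ± 0.12, from 71 to 106 CPM, without overlap. The remaining risers were Anxa2 (0.64), Fam162a (0.56), Ndrg1 (0.53), the mitochondrial adenylate kinase Ak4 (0.45), the collagen hydroxylases P4ha1 (0.39) and Plod1 (0.28), and Narf (0.37). The secreted glycoprotein stanniocalcin 2 (Stc2) fell (log2 fold change −0.32 ± 0.06, adjusted p = 0.00908). Vegfa, the angiogenic growth factor most often named as a HIF target, had −0.037 ± 0.07 (adjusted p = 0.835).

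The glycolytic enzymes that rose span the pathway from phosphofructokinase to lactate. They were Pfkl, Aldoa, Aldoc, Tpi1, Gapdh, Pgk1, Pgam1, Eno1, Eno2 and Ldha, with log2 fold changes from 0.36 to 0.69. Aldoa, the muscle-type aldolase, is among the most abundant transcripts of these cells and was at 1609.6, 1916, 987 and 1162 CPM in scramble replicates 1 to 4 and 2272, 1957, 1693 and 1539 CPM in knockdown replicates 1 to 4 (log2 fold change 0.44 ± 0.11, adjusted p = 0.0334). Eno1, enolase, was at 1359, 1735, 970.3 and 1099.8 CPM in scramble replicates 1 to 4 and 2099, 1693, 1722 and 1464 CPM in knockdown replicates 1 to 4 (log2 fold change 0.47 ± 0.12, adjusted p = 0.0372), and Ldha, which turns pyruvate into lactate, rose from 681 to 937 CPM (0.50 ± 0.14). Without replicate number 3 Ldha had 0.32. In pair 2 these genes were level: Eno1, Pgk1, Pgam1 and Ldha were higher in 3 of 4 pairs, and the median of the tested enzymes was 0.61, 0.032, 0.69 and 0.36 in pairs 1 to 4. Over the hypoxia targets outside glycolysis the same medians were 0.54, 0.15, 0.43 and 0.11. Both hexokinases and Pkm were not called (0.21 ± 0.06 for Hk1, 0.33 ± 0.10 for Hk2 and 0.38 ± 0.10 for Pkm). Hk2 had 0.18 without replicate number 1. The count of called enzymes moved with single libraries more than the median did. It was 0, 13, 0 and 1 without replicate numbers 1 to 4, 3, 2, 0 and 3 without scramble libraries 1 to 4, 0, 13, 0 and 0 without knockdown libraries 1 to 4, 0 without the block and 4 with DESeq2, while the list median stayed between 0.32 and 0.54 in those left-out fits. For the hypoxia targets outside glycolysis the left-out counts were 7, 18, 2 and 7 for the numbers, 9, 5, 2 and 16 for scramble, and 4, 20, 11 and 14 for the knockdown. Several of these genes have processed pseudogenes, and Bnip3, Ankrd37, Aldoa, Tpi1 and Gapdh overlap an annotated gene on the other strand, so their counts depend on a strand setting that is not given in the sources used here.

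**Figure D3:**
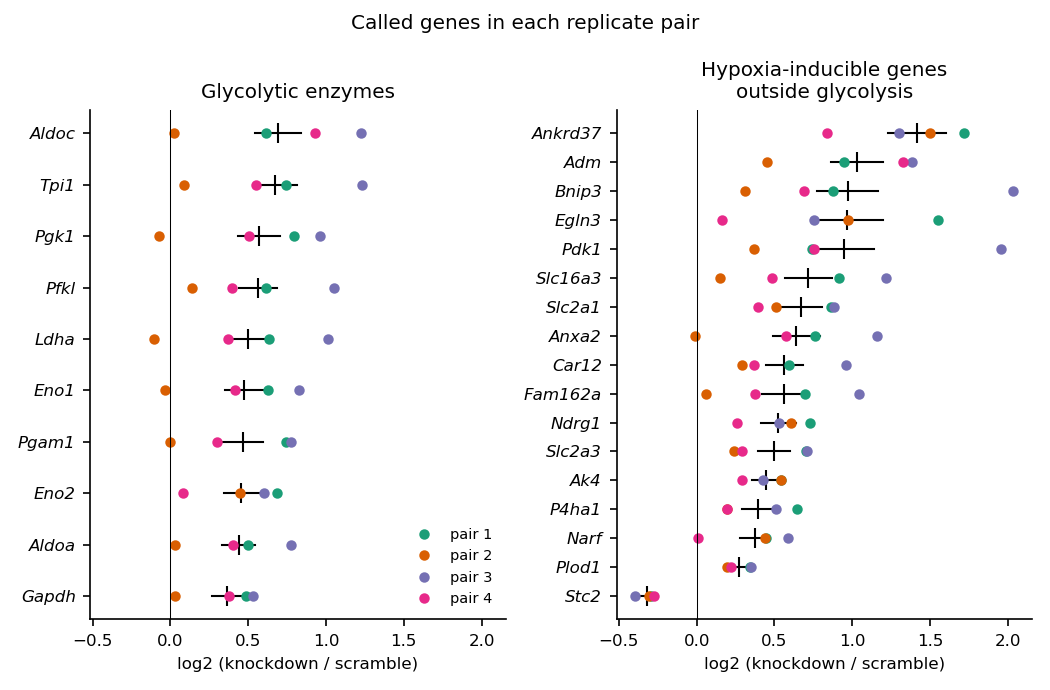
Difference between knockdown and scramble of the same replicate number (horizontal axis, log2 of the CPM ratio with 0.1 CPM added to each) for the called glycolytic enzymes (left) and the called hypoxia-inducible genes outside glycolysis (right); coloured points are the 4 pairs, and the black mark with its line is the fitted log2 fold change ± SE. Pair 2 lies near 0 for most glycolytic enzymes, and pair 3 is the highest for most genes.

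Promoters of Ankrd37, Bnip3, Slc16a3 and Ldha are shown because HIF binds a short core in many of its targets. The windows run from 250 bases before to 50 bases after the start of the gene in RefSeq on GRCm38.p6, written 5′ to 3′ on the gene's strand, with ACGTG on either strand in capitals; CACGTG is a match on both. Ankrd37 (chr8:45999801-46000100, minus strand) has matches that begin 241 and 6 bases before the start, Bnip3 (chr7:138909457-138909756, minus strand) at 108 and 107, Slc16a3 (chr11:120948817-120949116, plus strand) at 27 and 14, and Ldha (chr7:46845554-46845853, plus strand) 5 matches from 145 to 34 bases before the start. Other called genes have fewer or none. The windows of Pdk1, Adm and Tpi1 hold no ACGTG, nor do a further window of Ldha and 1 window of Aldoa. Those of Egln3 and Slc2a1 and the other Aldoa windows hold 1 match each, and that of Pgk1 holds 2.
Ankrd37: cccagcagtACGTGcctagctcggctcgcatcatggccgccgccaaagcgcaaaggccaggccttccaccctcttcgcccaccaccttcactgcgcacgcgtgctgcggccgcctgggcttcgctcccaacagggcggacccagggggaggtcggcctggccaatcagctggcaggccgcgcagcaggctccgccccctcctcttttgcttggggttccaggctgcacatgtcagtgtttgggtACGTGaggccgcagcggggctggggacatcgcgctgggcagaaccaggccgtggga
Bnip3: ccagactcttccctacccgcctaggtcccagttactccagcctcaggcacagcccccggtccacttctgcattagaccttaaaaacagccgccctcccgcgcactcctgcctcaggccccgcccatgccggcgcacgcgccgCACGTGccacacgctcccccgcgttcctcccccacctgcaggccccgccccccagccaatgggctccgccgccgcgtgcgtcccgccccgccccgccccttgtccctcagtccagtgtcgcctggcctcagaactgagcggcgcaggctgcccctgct
Slc16a3: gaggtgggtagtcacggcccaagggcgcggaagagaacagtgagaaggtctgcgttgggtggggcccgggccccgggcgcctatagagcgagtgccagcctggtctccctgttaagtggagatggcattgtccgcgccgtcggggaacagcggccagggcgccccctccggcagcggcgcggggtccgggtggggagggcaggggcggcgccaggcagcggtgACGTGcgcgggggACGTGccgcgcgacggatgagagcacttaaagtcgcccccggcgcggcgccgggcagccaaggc
Ldha: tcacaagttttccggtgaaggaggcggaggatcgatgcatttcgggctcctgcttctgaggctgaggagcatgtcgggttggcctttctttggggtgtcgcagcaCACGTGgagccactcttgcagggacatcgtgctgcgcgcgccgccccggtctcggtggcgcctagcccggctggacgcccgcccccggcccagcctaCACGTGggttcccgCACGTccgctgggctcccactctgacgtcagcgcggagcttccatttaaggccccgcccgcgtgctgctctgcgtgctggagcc
In the RefSeq table, 6447 of 32851 windows of this length hold ACGTG (19.6%), and 3071 of 10656 tested genes with a window have it in at least 1 (28.8%). Among the hypoxia targets called higher it is in 9 of 14 genes with a window, and among the called glycolytic enzymes in 6 of 10. Over the whole tested lists it is in 23 of 32 and 10 of 16. With GCGTG as a further form of the core, the numbers are 13 of 14 and 8 of 10, against 66.4% of the tested genes with a window. These are matches of letters in genes chosen as HIF targets and say nothing of binding in these cells.

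Cox4i2, Mgarp and Ndufa4l2, which code for mitochondrial proteins, were among the called genes. Cox4i2, the isoform of a cytochrome c oxidase subunit that replaces Cox4i1 in low oxygen, was at 4.23, 7.003, 0.928 and 1.68 CPM in scramble replicates 1 to 4 and 8.68, 7.48, 5.15 and 3.38 CPM in knockdown replicates 1 to 4 (log2 fold change 1.11 ± 0.26, adjusted p = 0.0281; fold change 0.72 without replicate number 3). Mgarp and Ndufa4l2, mitochondrial proteins known as HIF targets, rose by log2 fold changes of 1.03 ± 0.23 and 0.79 ± 0.19. In the knockdown Mgarp ran from 2.98 to 10.04 CPM against 1.78 to 6.65 in scramble. Of 96 nuclear subunits of oxidative phosphorylation, 5 rose and 0 fell (5.21%, near the 4.46% over all genes), Ndufa4l2 and Cox4i2 among them with Ndufv3 (0.29 ± 0.07) and Atp5g1 (0.24 ± 0.06). Of their fold changes 84 of 96 were above 0, where 51.4% of all tested genes were, with a median of 0.12 against 0.007 over all genes and pair medians of 0.19, −0.055, 0.20 and 0.13. The subunit list had 1, 14, 0 and 0 calls without replicate numbers 1 to 4, 1, 1, 0 and 0 without scramble libraries 1 to 4, 0, 20, 0 and 0 without knockdown libraries 1 to 4 and 3 with the 8 libraries only, and 2 with limma-voom. Of 24 tested transcripts of the mitochondrial genome none was called, and their median was −0.003 (pair medians −0.082, −0.036, −0.062 and −0.008).

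Among YAP targets and adhesion genes, 8 were called, several of them actin genes or actin-binding genes, and all 8 rose. SRF binds the CArG box, CC followed by 6 A or T and then GG, and drives actin genes and their regulators; YAP targets and adhesion genes were listed with them because both programmes answer to actin tension. Of 25 tested genes of that list, 8 rose and 0 fell (32%, against 4.46% of all genes called and 2.25% called higher), with a median of 0.17 (pair medians 0.25, 0.053, 0.26 and 0.21). The fold change was below 0 in 6 of the list. Beta-actin, Actb, had the highest level of any called gene, at 3749, 4297, 4262 and 4491 CPM in scramble replicates 1 to 4 and 5040.2, 4337, 6284 and 6017 CPM in knockdown replicates 1 to 4 (log2 fold change 0.36 ± 0.08, adjusted p = 0.0232). Cytoplasmic gamma-actin, Actg1, was at 1383, 1494, 1531 and 1514 CPM in scramble replicates 1 to 4 and 1843, 1605, 1953 and 1975 CPM in knockdown replicates 1 to 4, with all knockdown libraries above all scramble libraries (log2 fold change 0.32 ± 0.07, adjusted p = 0.0199). Srf itself rose from 48.7 to 63.6 CPM (0.37 ± 0.06). The actin cross-linker filamin A, Flna, was at 837, 986, 1005 and 983 CPM in scramble replicates 1 to 4 and 1097, 1016, 1628 and 1274 CPM in knockdown replicates 1 to 4, without overlap (log2 fold change 0.38 ± 0.09, adjusted p = 0.0239), and the focal adhesion protein vinculin, Vcl, rose by 0.31 ± 0.07, also without overlap. Calponin 2 (Cnn2, 0.57 ± 0.10) and transgelin 2 (Tagln2, 0.26 ± 0.07) bind actin as well. The secreted matricellular gene Ccn1, a common readout of YAP, was at 1.61, 2.00, 3.19 and 3.53 CPM in scramble replicates 1 to 4 and 4.52, 3.78, 4.68 and 5.1 CPM in knockdown replicates 1 to 4 (log2 fold change 0.86 ± 0.17, adjusted p = 0.0141). Beside the 8 calls of the full fit, 2, 9, 2 and 0 genes of the list were called without replicate numbers 1 to 4, 3, 4, 3 and 3 without the scramble libraries and 2, 10, 3 and 3 without the knockdown libraries.

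The windows of Srf (chr17:46556113-46556412, minus strand) and Actg1 (chr11:120348446-120348745, minus strand) show the element, with CArG boxes on either strand in capitals. They begin 82 and 62 bases before the start of Srf and 90 bases before that of Actg1.
Srf: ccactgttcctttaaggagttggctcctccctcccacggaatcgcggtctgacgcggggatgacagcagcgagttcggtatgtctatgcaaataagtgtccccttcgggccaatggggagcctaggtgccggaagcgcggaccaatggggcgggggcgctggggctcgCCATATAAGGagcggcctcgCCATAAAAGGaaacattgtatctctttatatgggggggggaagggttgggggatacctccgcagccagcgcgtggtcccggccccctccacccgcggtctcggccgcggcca
Actg1: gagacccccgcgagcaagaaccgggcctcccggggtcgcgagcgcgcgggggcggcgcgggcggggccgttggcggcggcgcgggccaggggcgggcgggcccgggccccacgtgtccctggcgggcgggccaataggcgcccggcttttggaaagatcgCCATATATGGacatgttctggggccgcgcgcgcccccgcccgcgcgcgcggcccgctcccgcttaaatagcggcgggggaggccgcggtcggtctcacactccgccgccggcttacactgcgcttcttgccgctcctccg
A CArG box is in 535 of the 32851 windows (1.63%) and in 175 of 10656 tested genes with a window (1.64%). Of the 8 genes called higher in the list, 7 have a window in the table, and 4 of these hold a box: Actg1, Srf, Vcl and Cnn2. Over the whole tested list it is in 5 of 21 genes with a window. The list holds genes known as SRF targets, and a match says nothing of binding in these cells. Actb has no entry there.

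The largest rises outside these groups were scattered over functions. Kbtbd11, a gene of the BTB-kelch family, had the largest of any protein-coding gene with a mean of at least 5 CPM over the 8 libraries. Its level was 12.5, 11.2, 3.64 and 3.65 CPM in scramble replicates 1 to 4 and 36, 32.5, 13.5 and 6.34 CPM in knockdown replicates 1 to 4 (log2 fold change 1.45 ± 0.17, adjusted p = 0.000642). Each pair rose, but replicates 1 and 2 were above 3 and 4 in both groups, so that scramble replicates 1 and 2 exceeded knockdown replicate 4; Kbtbd11 also overlaps 2 genes annotated on the other strand. Tpbgl, related to the trophoblast glycoprotein gene, showed the same layout with a tighter spread within pairs, at 66.8, 63.2, 43.7 and 39.5 CPM in scramble replicates 1 to 4 and 118, 105, 74.6 and 62.3 CPM in knockdown replicates 1 to 4 (log2 fold change 0.75 ± 0.06, adjusted p = 3.1e-05). Plekha2, an adaptor that binds a phosphoinositide made by PI3-kinase, rose from 41.4 to 72.5 CPM (0.88 ± 0.12), and the alpha-2B adrenergic receptor Adra2b from 3.48 to 6.84 CPM (0.90 ± 0.15). Adra2b and Adm had scramble means under 5 CPM and reached that limit through the knockdown. Unconventional myosin XVI (Myo16, 0.74 ± 0.10), beta-synuclein (Sncb, 0.74 ± 0.13) and Abhd18 (0.74 ± 0.17) complete the 12 largest, beside Adm, Mgarp, Bnip3, Pdk1 and Ndufa4l2 above. The linker histone H1f0, named after its value was seen, rose from 161 to 249 CPM (log2 fold change 0.62 ± 0.09, adjusted p = 0.00304). Of 64 replication-dependent histone genes, 3 rose, all encoding histone H4 (Hist1h4f 0.38 ± 0.10, Hist4h4 0.40 ± 0.10 and Hist2h4 0.28 ± 0.08), and none fell (4.69%, near the 4.46% over all genes). None of these genes was called with the 8 libraries only, and without knockdown library 1 none was called and their fold changes were 0.23, 0.24 and 0.18; without replicate number 1 they were 0.24, 0.23 and 0.19. The list had 0 to 4 calls over all left-out fits. These genes are near-identical copies, and reads that align to several of them were assigned to none, so their counts rest on the remaining reads. The list's pair medians of 0.42, −0.11, 0.35 and −0.18 differed in sign.

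Among signalling genes, regulators of Wnt, Notch and the neuroblastoma programme were called. Wnt ligands bind Frizzled receptors and their Lrp co-receptors to stabilise beta-catenin, and Dkk1 is a secreted antagonist that is itself a target of the pathway. Dkk1 was at 87.8, 116, 85.6 and 102 CPM in scramble replicates 1 to 4 and 210.4, 179.7, 132 and 135 CPM in knockdown replicates 1 to 4, with no overlap (log2 fold change 0.74 ± 0.13, adjusted p = 0.00958). The receptors Fzd2 (0.66 ± 0.14) and Fzd7 (0.43 ± 0.08) and the co-receptor Lrp5 (0.31 ± 0.07) rose too, while Axin1, a scaffold of the beta-catenin destruction complex, and Znrf3, which removes Frizzled from the membrane, fell. That is 4 higher and 2 lower of 25 tested (24%, against 4.46% of all genes), with a list median of −0.069, so the called receptors and the list's median differ in sign. The Wnt list had 2, 4, 2 and 2 calls without replicate numbers 1 to 4, 3, 2, 1 and 3 without scramble libraries 1 to 4, 2, 4, 2 and 5 without knockdown libraries 1 to 4 and 4 with the 8 libraries only. Its median ran from −0.084 (without replicate number 4) to −0.022 (without replicate number 1) in the left-out fits. Its 2 lower calls became 1 without knockdown library 4 and 0 in the remaining 11 left-out fits and in the 8 libraries. In the Notch list (2 of 21 called, 9.52%, against 4.46% of all genes), Lfng, a glycosyltransferase that modifies Notch, and the target gene Hey2 rose with 0.71 ± 0.10 and 0.66 ± 0.15, both without overlap, and none fell. Its calls numbered 1 to 2 in the left-out fits. Mycn, the oncogene amplified in aggressive neuroblastoma, was at 10.5, 11.1, 11.4 and 12.6 CPM in scramble replicates 1 to 4 and 19.8, 14.1, 24 and 15.7 CPM in knockdown replicates 1 to 4. All knockdown libraries lay above all scramble libraries (log2 fold change 0.66 ± 0.12, adjusted p = 0.00844). Insm1, a zinc-finger factor of neuroendocrine cells (0.25 ± 0.06), and Ddc, the decarboxylase that makes dopamine (0.93 ± 0.26), rose as well, 3 of 17 in that list (17.6%, against 4.46%). Ddc had 0.56 without replicate number 3. The neuroblastoma list had 1, 5, 0 and 1 calls without replicate numbers 1 to 4, 1, 1, 1 and 1 without scramble libraries 1 to 4, 1, 6, 1 and 2 without knockdown libraries 1 to 4 and 1 with the 8 libraries only. In the immediate early list, Maff (0.47 ± 0.09), Btg2 (0.59 ± 0.14) and Dusp4 (0.28 ± 0.08) rose and Klf6 fell (−0.44 ± 0.11), 4 of 30 tested (13.3%, against 4.46%). The immediate early list had 1, 2, 2 and 2 calls without replicate numbers 1 to 4, 1, 1, 2 and 4 without scramble libraries 1 to 4, 1, 3, 4 and 5 without knockdown libraries 1 to 4 and 3 with the 8 libraries only. Dusp4 had 0.18 without replicate number 1 and 0.18 without scramble library 1. In the TGF-beta and BMP list the ligand Tgfb2 (−0.34 ± 0.07) and the BMP-responsive inhibitor of differentiation Id4 (−0.59 ± 0.14) fell, 2 of 23 tested (8.7%, against 4.46%). The TGF-beta list had 0, 0, 2 and 0 calls without replicate numbers 1 to 4, 1, 0, 0 and 2 without scramble libraries 1 to 4, 0, 1, 2 and 2 without knockdown libraries 1 to 4 and 2 with the 8 libraries only.

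Secretory and neuronal genes went both ways. Vgf, a neuropeptide precursor, Pcsk1n, an inhibitor of prohormone convertase, and the synaptotagmin Syt5 rose with log2 fold changes of 0.27 ± 0.06, 0.27 ± 0.06 and 0.33 ± 0.09. Slc18a2, the vesicular monoamine transporter, fell from 50.2 to 36.7 CPM (log2 fold change −0.45 ± 0.07, adjusted p = 0.00304), and the SNARE protein Snap25 fell (−0.25 ± 0.07), which leaves 3 higher and 2 lower of 31 (16.1%, against 4.46% of all genes). The secretion list had 1, 4, 1 and 1 calls without replicate numbers 1 to 4, 1, 2, 2 and 1 without scramble libraries 1 to 4, 1, 4, 3 and 2 without knockdown libraries 1 to 4 and 3 with the 8 libraries only. The microtubule-binding protein tau, Mapt, was the 1 called gene of 31 cytoskeletal and growth cone genes (−0.29 ± 0.06, 3.23%). The marker list of the line itself (Hand2, Gata3, Isl1, chromogranins and others) had all 12 members tested, and its summed level was 2861 to 3403 CPM in scramble and 2887 to 3368 CPM in the knockdown, with Snap25 its only called gene. Of the lists for other cell types, 2 of 11 fibroblast genes, 4 of 12 glial genes and 2 of 11 immune and endothelial genes had enough reads to be tested, and none was called. Their summed levels in scramble and knockdown were 30.1 to 35.7 and 25.8 to 46 CPM for fibroblasts, 27.8 to 35.5 and 26.8 to 38.3 CPM for glia and 5.79 to 6.81 and 6.34 to 8.95 CPM for immune and endothelial cells. Col3a1, Thy1, Twist1, Lum, Aqp4, S100b, Olig1, Olig2, Mog, Itgam and Cd3e had no read in any of the 8 libraries.

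The genes that fell included splicing regulators, the functional neighbours of RBMX. SR proteins are RNA-binding splicing factors that regulate one another and themselves, in part through poison exons, and CLK and SRPK kinases phosphorylate them. Of 19 tested SR factors and kinases none was called higher and 2 were called lower (10.5%, against 4.46% of all genes called and 2.2% called lower). Of the 19, 17 had a fold change below 0, against 8534 of all 17569 genes, and 11 were lower in 4 of 4 pairs, against 2206 of 17569. The median was −0.13 (pair medians −0.29, −0.065, −0.063 and −0.11). Srsf9 lay above 0, with 0.18 to 0.315 in the left-out fits. Srsf5 was at 161, 163, 165 and 130.1 CPM in scramble replicates 1 to 4 and 56.4, 106, 127 and 91.5 CPM in knockdown replicates 1 to 4, with no overlap (log2 fold change −0.73 ± 0.14, adjusted p = 0.0108). Srsf6 was at 238, 234, 302 and 240.0 CPM in scramble replicates 1 to 4 and 119, 168, 249 and 176 CPM in knockdown replicates 1 to 4; knockdown replicate 3 lay within the scramble range (log2 fold change −0.55 ± 0.09, adjusted p = 0.00644). Both stayed called in every fit that left out a library or a number. The kinases Clk1 (−0.30 ± 0.10, adjusted p = 0.105) and Clk4 (−0.32 ± 0.09, adjusted p = 0.0587) missed the threshold. With a library or number left out, Clk1 ran from −0.39 to −0.20 (lowest in size without scramble library 1) and Clk4 from −0.39 to −0.20 (without replicate number 1). The median of the SR list ran from −0.17 (without knockdown library 2) to −0.070 (without knockdown library 1). Among genes of the Rbmx family and its splicing partners (3 of 14 called, Rbmxl1 and Rbmx among them), the RNA helicase Ddx5 fell (1054, 1093, 946 and 868 CPM in scramble replicates 1 to 4 and 752, 835, 817 and 747 CPM in knockdown replicates 1 to 4; log2 fold change −0.32 ± 0.07, adjusted p = 0.0172), and Tra2a and Tra2b, which bind RBMX, had −0.074 ± 0.12 and 0.027 ± 0.06 and were not called. Ddx5 was lower in each knockdown library than in any scramble library. Its call was lost without replicate number 1 or 4, without scramble library 1, 2 or 3 and without knockdown library 1, with fold changes from −0.39 to −0.27 over the left-out fits. Of 29 hnRNP and FET genes Hnrnpdl alone was called, from 246 to 186 CPM (log2 fold change −0.44 ± 0.09, adjusted p = 0.0155), and of 36 core spliceosome genes Sf3b5 alone, which rose by 0.34 ± 0.07; the core list had a median of 0. Scaf11, an SR-related protein and one of the most abundant called genes, fell from 369 to 313 CPM (−0.23 ± 0.05).

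A few genes of other steps of RNA metabolism fell. The endonuclease Smg6, a factor of nonsense-mediated decay, fell from 90.3 to 66.3 CPM (log2 fold change −0.45 ± 0.07, adjusted p = 0.00644). In the microRNA pathway, Tnrc6c, a scaffold of the silencing complex (−0.35 ± 0.06), Dgcr8, which cuts primary microRNAs with Drosha (−0.30 ± 0.07), and Lin28b, which blocks let-7 maturation (−0.28 ± 0.07), fell, 3 of 19 (15.8%, against 4.46% of all genes, median −0.089). The microRNA list had 1, 2, 1 and 0 calls without replicate numbers 1 to 4, 1, 1, 1 and 2 without scramble libraries 1 to 4, 1, 4, 2 and 1 without knockdown libraries 1 to 4 and 2 with the 8 libraries only. The median of that list ran from −0.12 (without scramble library 3) to −0.035 (without knockdown library 2). Lin28b had −0.18 without replicate number 1. The m6A reader Ythdf1 fell (−0.25 ± 0.06), 1 of 18 (5.56%, near the 4.46% over all genes). So did the snoRNA host genes Zfas1 (−0.26 ± 0.07) and Epb41l4aos (−0.27 ± 0.07), 2 of 15 (13.3%, against 4.46%). The snoRNA host list had 1, 0, 0 and 0 calls without replicate numbers 1 to 4, 1, 0, 0 and 0 without scramble libraries 1 to 4, 1, 0, 0 and 0 without knockdown libraries 1 to 4 and 0 with the 8 libraries only. With limma-voom it had 1. All groups, scramble included, received plasmids for an artificial microRNA, which passes through the same pathway. Its amount in each group was not measured, and its part in these falls was not tested.

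Genome maintenance genes were examined because RBMX has been tied to the splicing of their very long exons. Of 19 such genes, Brca2 and Rev3l fell and none rose (10.5%, against 4.46% of all genes, median −0.082). The list had 1, 2, 0 and 0 calls without replicate numbers 1 to 4, 1, 1, 0 and 0 without scramble libraries 1 to 4, 1, 4, 0 and 1 without knockdown libraries 1 to 4 and 2 with the 8 libraries only, and 1 with upper-quartile scaling. Its median ran from −0.16 (without knockdown library 2) to −0.043 (without knockdown library 4) in the left-out fits. Brca2, which acts in the repair of broken DNA by homologous recombination, was at 44.1, 43.4, 44.6 and 44.4 CPM in scramble replicates 1 to 4 and 40.3, 32.2, 26.1 and 22 CPM in knockdown replicates 1 to 4. The scramble libraries were within 43.4 to 44.6 CPM, and all knockdown libraries lay below them (log2 fold change −0.57 ± 0.11, adjusted p = 0.0142). Rev3l, the catalytic subunit of DNA polymerase zeta, fell (−0.25 ± 0.07, adjusted p = 0.0428), also without overlap. These counts are over whole genes, so a change within an exon, such as a splice inside it, was not measured. Among cohesin genes, the acetyltransferase Esco1 fell (log2 fold change −0.30 ± 0.06, adjusted p = 0.0165), 1 of 19 (5.26%, near the share over all genes, and 0 to 2 in the left-out fits). Of the 19 fold changes 17 were below 0, against 8534 of all 17569 genes, with a median of −0.044. Cohesin medians in the left-out fits ran from −0.10 (without replicate number 1) to −0.013 (without replicate number 2).

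By gene structure, more of the called genes with long exons fell than rose, and more of the compact ones rose than fell, while most genes of every class were not called. Of 168 tested protein-coding genes whose longest internal exon has at least 3000 bases, 18 fell and 3 rose (12.5% called, against 5.79% of all protein-coding genes). For 1000 to under 3000 bases the counts were 77 lower and 33 higher of 1416, and under 1000 bases 266 lower and 340 higher of 11136. The median log2 fold changes of these classes over all their tested genes were −0.054, −0.033 and 0.010. Other properties that go with exon length gave the same layout, and were chosen in part after values were seen. By total exon length, the shortest tertile of 4240 genes had 161 higher and 28 lower and the longest 82 and 241; by genomic span the counts were 176 and 42 against 76 and 202. By GC content of the longest transcript the tertile lowest in GC had 53 higher and 204 lower, and the highest 196 and 31. All 21 called single-exon coding genes rose, of 363 tested (5.79%, the same share as of all protein-coding genes). These properties are linked to one another, and their parts in the result were not tested. Of 326 tested zinc-finger genes named Zfp, many of which carry all their fingers in 1 long exon, 16 fell and 1 rose (5.21%, near the 4.46% over all genes and the 5.79% of protein-coding genes, median −0.065). Without replicate numbers 1 to 4 the calls were 2, 9, 2 and 2, without scramble libraries 1 to 4 they were 3, 3, 2 and 5, and without knockdown libraries 1 to 4 they were 3, 14, 7 and 8. Zfp655 (−0.39 ± 0.06), Zfp65 (−0.37 ± 0.07) and Zfp592 (−0.33 ± 0.07) were among those that fell, and Zfp775 (0.40 ± 0.09) rose. The median of the Zfp genes was −0.001 in replicates 1 and 2 alone and −0.14 in replicates 3 and 4 alone, and ran from −0.089 (without replicate number 2) to −0.021 (without knockdown library 3) in the left-out fits.

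**Figure D4:**
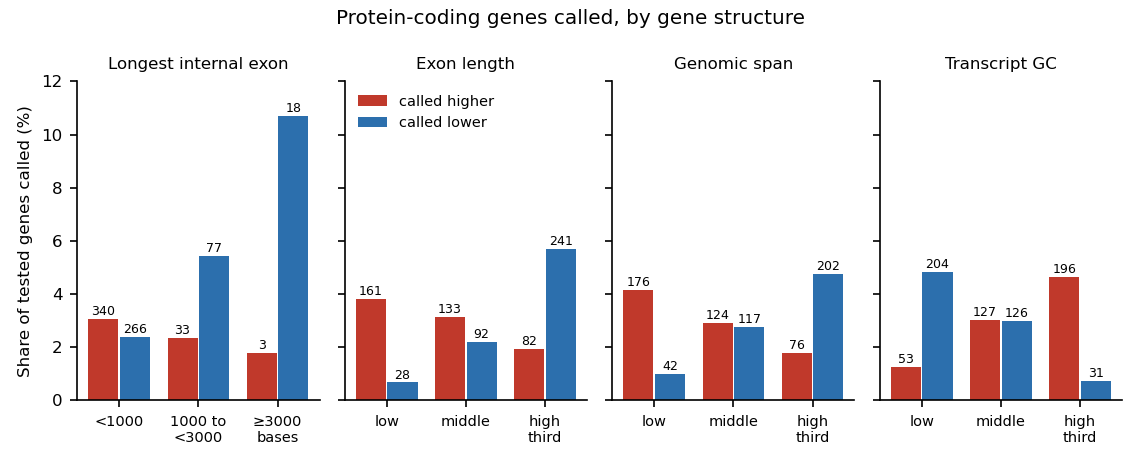
Share of tested protein-coding genes called higher (red) and lower (blue) in Rbmxl1 knockdown (vertical axis, percent, from 0) by longest internal exon and by tertiles of total exon length, genomic span and GC content; numbers above the bars are genes. Genes called lower take a growing share with exon length and span, and genes called higher with GC content.

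Membrane transporters held some of the most abundant genes that fell. Slc38a2 (SNAT2), which brings small neutral amino acids into the cell, was at 1565, 1542, 1197 and 1274 CPM in scramble replicates 1 to 4 and 1148, 1015, 849.6 and 1041 CPM in knockdown replicates 1 to 4 (log2 fold change −0.46 ± 0.08, adjusted p = 0.00911). The taurine transporter Slc6a6 was at 403, 413, 425 and 443 CPM in scramble replicates 1 to 4 and 316, 292, 273 and 307 CPM in knockdown replicates 1 to 4 (log2 fold change −0.51 ± 0.07, adjusted p = 0.0015). Neither overlapped between the groups. The myo-inositol transporter Slc5a3 fell with them (−0.37 ± 0.08), as did Nfat5 (−0.27 ± 0.06), the transcription factor that raises all 3 when salt is high. Other NFAT5-linked genes, looked up after these values were seen, were not called: Akr1b3, aldose reductase, had 0.050 ± 0.06, and Hspa4l −0.038 ± 0.06. Slc40a1, ferroportin, the exporter of iron, was at 15.7, 14.3, 7.44 and 5.87 CPM in scramble replicates 1 to 4 and 9.36, 8.86, 2.84 and 4.15 CPM in knockdown replicates 1 to 4 (log2 fold change −0.83 ± 0.14, adjusted p = 0.0076), lower in each pair and lower in replicates 3 and 4 than in 1 and 2 of both groups. The mitochondrial carrier Slc25a44 (−0.54 ± 0.08) and the cystine importer Slc7a11 (−0.34 ± 0.06) fell without overlap. Risers included the zinc transporter Slc39a3 (0.37 ± 0.06), the amino acid transporter Slc43a2 (0.45 ± 0.09) and the monocarboxylate carrier family members Slc16a6 (0.38 ± 0.07) and Slc16a3. Over 231 solute carriers, 11 rose and 10 fell (9.09%, against 4.46% of all genes), with a median of 0.019. The solute carrier list had 10, 23, 6 and 8 calls without replicate numbers 1 to 4, 10, 9, 8 and 12 without scramble libraries 1 to 4, 10, 30, 11 and 13 without knockdown libraries 1 to 4 and 16 with the 8 libraries only.

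The other large falls were in genes of various functions. Crebrf, a regulator of CREB3 factors tied to energy balance, was at 72, 66.6, 54.5 and 54.2 CPM in scramble replicates 1 to 4 and 47.2, 50.6, 28.8 and 33.1 CPM in knockdown replicates 1 to 4, with no overlap (log2 fold change −0.66 ± 0.08, adjusted p = 0.00069). Fbxo32 (atrogin-1), a ubiquitin ligase subunit induced by FOXO factors, fell from 17.7 to 11.9 CPM (−0.68 ± 0.12). Pik3r3, a regulatory subunit of PI3-kinase, and Castor2, of the family of arginine sensors that act on mTORC1, fell, with log2 fold changes of −0.60 ± 0.08 and −0.58 ± 0.11. Klf6 and Stox2, both transcription factors, fell from 139 to 99.6 CPM and 806 to 649 CPM. The remaining members of the 12 largest falls were the cyclic nucleotide-gated channel subunit Cnga3 (−0.62 ± 0.10), the RNA-binding phosphoprotein Arpp21 (−0.59 ± 0.12), Id4 and the doublecortin-domain gene Dcdc2a (−0.57 ± 0.14), beside Rbmxl1, Slc40a1, Srsf5 and Brca2. Chd1 (−0.21 ± 0.06), Smarce1 (−0.26 ± 0.05) and Arid1b (−0.22 ± 0.06) fell among 35 chromatin remodelling and Polycomb genes. Of the 35, 29 had a fold change below 0 (median −0.070), against 8534 of all 17569 genes. These 3 calls are 8.57% of the list, against 4.46% of all genes. The chromatin list had 0, 2, 0 and 0 calls without replicate numbers 1 to 4, 0, 0, 0 and 1 without scramble libraries 1 to 4, 0, 3, 1 and 1 without knockdown libraries 1 to 4 and 1 with the 8 libraries only. Left-out medians ran from −0.10 (without replicate number 4) to −0.045 (without knockdown library 3). In the circadian list the nuclear receptor Nr1d2 (−0.23 ± 0.05) and the repressor Nfil3 (−0.25 ± 0.06) fell, 2 of 20 tested (10%, against 4.46%). In that list 18 had a fold change below 0, against 8534 of all 17569 genes, with a median of −0.18 and pair medians of −0.29, −0.18, −0.13 and 0.015. The circadian list had 0, 1, 0 and 0 calls without replicate numbers 1 to 4, 0, 0, 0 and 0 without scramble libraries 1 to 4, 0, 3, 0 and 0 without knockdown libraries 1 to 4 and 0 with the 8 libraries only. Medians there ran from −0.21 (without knockdown library 4) to −0.094 (without knockdown library 1). The interferon-inducible kinase Eif2ak2 (PKR), a sensor of double-stranded RNA, fell (−0.38 ± 0.07) as the single call of 33 interferon-stimulated genes (3.03%, under the share over all genes).

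Proliferation and the main biosynthetic machines had no called member. That held for DNA replication (38 tested, median 0), mitosis (36, 0.033), cytosolic ribosomal proteins (85, −0.003), proteasome subunits (37, 0.072), cytosolic tRNA synthetases (20, 0.054), sterol synthesis and uptake (23, 0), the unfolded protein response (26, 0.049), clustered protocadherins (54, 0.039) and nuclear long non-coding RNAs (13, −0.16). A gene without a call is not shown to be level: in simulated counts of this design 58.5% of genes changed 1.5-fold were recovered and 73.5% of those changed 2-fold. With a library or number left out the proteasome had 0 to 6 calls (most without knockdown library 2), mitosis 0 to 3 and sterol synthesis 0 to 3. Several of these medians changed sign in those fits. They ran from −0.24 to 0.01 for nuclear long non-coding RNAs, from −0.038 to 0.14 for protocadherins and from −0.035 to 0.13 for the unfolded protein response. Proteasome fold changes were above 0 in 33 of 37 genes, against 9035 of all 17569, but the pair medians were 0.14, −0.13, 0.18 and 0.085. Several lists held 1 to 3 calls, to be read against 4.46% of all genes. In heat shock Hsph1 (0.32 ± 0.07) and Hspa2 (0.37 ± 0.09) rose, 2 of 19 (10.5%; 0 to 3 in the left-out fits). Among NRF2 targets Srxn1 rose (0.36 ± 0.07) and Slc7a11 and Gclc (−0.21 ± 0.06) fell, 3 of 25 (12%; 0 to 5). Among p53 targets Btg2 rose and Zmat3 (−0.22 ± 0.06) and Trp53inp1 (−0.33 ± 0.09) fell, 3 of 25 (12%; 0 to 2). Fatty acid synthesis had Acacb (0.30 ± 0.07), 1 of 15 (6.67%, 0 to 5 in the left-out fits). The calls of ATF4 targets (Slc7a11, 1 of 26, 3.85%), autophagy (the kinase Ulk1, 0.31 ± 0.07, 1 of 33, 3.03%) and ion channels (Kcnq5, −0.21 ± 0.06, 1 of 42, 2.38%) were under the share over all genes.

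**Figure D5:**
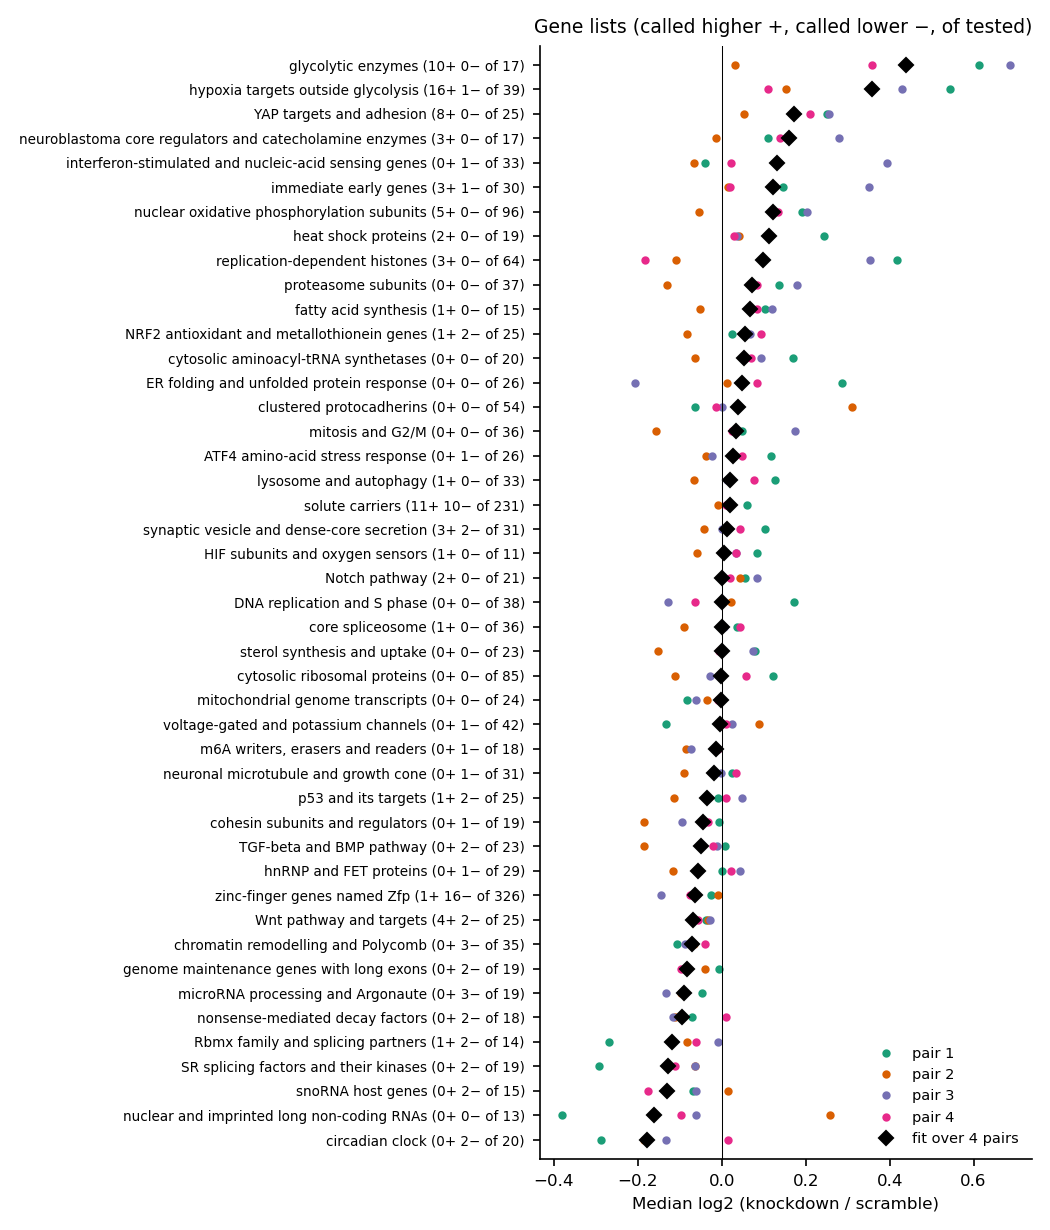
Median log2 ratio of Rbmxl1 knockdown over scramble (horizontal axis) over the tested members of each gene list (rows); coloured points are the medians in the 4 replicate pairs, black diamonds those of the fit over all pairs, and labels give genes called higher (+) and lower (−) of those tested. Glycolytic enzymes (0.44) and hypoxia targets (0.36) stand at the top with pair 2 or pair 4 nearest to 0, and circadian genes (−0.18) at the bottom.

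Few genes that do not code for protein were called. Of 1607 tested long non-coding RNAs, 11 rose and 13 fell (1.49%), and of 1672 pseudogenes 7 and 6 (0.778%), against 4.46% of all genes and 5.79% of protein-coding genes. By level, 0.309% of all genes under 1 CPM were called and 7.42% of those at 100 CPM or more; coding and non-coding genes were not compared at matched levels. The largest rise was that of Rps2-ps13, a pseudogene of a ribosomal protein gene, at 0.391, 0.489, 0.353 and 0.429 CPM in scramble replicates 1 to 4 and 0.68, 4.03, 0.605 and 1.21 CPM in knockdown replicates 1 to 4 (log2 fold change 1.68 ± 0.40, adjusted p = 0.0299). Its fold change was 1.07 without replicate number 2 and 1.11 without knockdown library 2. All its scramble libraries were under 1 CPM, so it met the naming limit, a mean of 1 CPM, through the knockdown, above all library 2. Gm807 met that limit through the knockdown too. Gm807 (1.34 ± 0.25), Gm6277 (0.99 ± 0.24) and B020018J22Rik (0.86 ± 0.19) rose, and 5430430B14Rik (−0.89 ± 0.22), Gm16310 (−0.86 ± 0.17), Gm31663 (−0.84 ± 0.21) and Gm37121 (−0.77 ± 0.20) fell, all at mean levels of a few CPM or less; Gm37121 had −0.51 without replicate number 1. Gm16310 lies within the same strand and region as Mrps6, and Gm37121 as Nrp2, so their reads may come from those genes. The nuclear speckle and paraspeckle RNAs Malat1 (−0.21 ± 0.08, adjusted p = 0.17) and Neat1 (−0.42 ± 0.15, adjusted p = 0.133) were not called. With a library or number left out, Malat1 ran from −0.30 to −0.12 and Neat1 from −0.69 to −0.28.

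The Rbmx knockdown was set beside these values to see where the Rbmxl1 knockdown differs. Both use the same 4 scramble libraries, so likeness of their fold changes against scramble carries no weight, and the direct comparison of the knockdown libraries is the test. It called 2 of 17569 genes (0.0114%), Rbmx and Rbmxl1 themselves, with 1002 genes at an unadjusted p under 0.05; DESeq2 called 10. The log2 difference of Rbmxl1 knockdown over Rbmx knockdown was −1.35 ± 0.09, adjusted p = 6.3e-07 for Rbmxl1, and 1.66 ± 0.08, adjusted p = 5.6e-09 for Rbmx. For the genes described above the log2 fold changes over scramble in Rbmxl1 and in Rbmx knockdown were 1.42 ± 0.19 and 1.01 ± 0.19 for Ankrd37, 0.97 ± 0.20 and 0.94 ± 0.20 for Bnip3, 0.44 ± 0.11 and 0.57 ± 0.11 for Aldoa, 0.36 ± 0.08 and 0.41 ± 0.08 for Actb, and −0.73 ± 0.14 and −0.69 ± 0.14 for Srsf5. By list, the Rbmx knockdown had 20 hypoxia targets outside glycolysis called higher and 2 lower (median 0.38), and 13 glycolytic enzymes higher and 0 lower (0.46). It had 29 oxidative phosphorylation subunits higher and 0 lower (0.18), and 1 SR factor or kinase higher and 8 lower (−0.18). These lists are thus not particular to the Rbmxl1 knockdown. Brca2 had −0.57 ± 0.11 and −0.23 ± 0.11, Slc40a1 −0.83 ± 0.14 and −0.45 ± 0.14, Castor2 −0.58 ± 0.11 and −0.23 ± 0.11, and Esco1 −0.30 ± 0.06 and −0.048 ± 0.06. For Brca2 the direct difference was −0.34 ± 0.11, adjusted p = 0.859, for Castor2 −0.35 ± 0.11, adjusted p = 0.859 and for Esco1 −0.25 ± 0.06, adjusted p = 0.77, so none of these was shown to differ between the knockdowns. That does not show that they act alike: the standard errors of the direct differences allow changes of the size of many of the called ones.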

How the data were processed

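The authors deposited 1 file of raw counts per library, whole reads per Ensembl gene without normalization, with 5 rows that name no gene (52.3% to 56.8% of each file over the 8 libraries, 20.6% to 26.0% being reads with several alignments), which were left out. Per the submitters' processing notes, cutadapt, STAR 2.5.3a, HTSeq 0.6.1p1, R 3.3.2, DESeq2 1.16.1 and build mm10 were used. The annotation version and strand setting are not given in the sources used here. Gene names, positions and structures were taken from GENCODE M21 (55141 of 55401 identifiers matched).

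Here the counts went into edgeR 4.0.16 under R 4.3.3. The filterByExpr function (minimum count 10, minimum total 15) left 17569 genes, scaling was by TMM, and a quasi-likelihood model took group and replicate number over the 12 libraries, so that the groups pool their spread (6 residual degrees of freedom, common dispersion 0.0093, or 0.0362 without the replicate number). Calls are F-tests whose Benjamini-Hochberg adjusted p lies under 0.05 over every gene tested. CPM values use the TMM-scaled library sizes. Fold changes are given as estimate ± SE. Pairs were compared because deviations from the group means correlated in each pair of scramble and knockdown libraries of the same number (r 0.26 to 0.43 over 4 pairs), although libraries of different number within replicates 1 and 2, or 3 and 4, gave 0.30 to 0.42. The pairing thus comes from the values. The labels call the libraries biological replicates without saying what a number stands for or whether they are separate cultures, so p-values measure the spread between these samples, which may be technical.

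On simulated counts with 200 changed genes, 58.5% were recovered at 1.5-fold (6.4% of calls false) and 73.5% at 2-fold (7% false). Alternatives were no block, the 8 libraries alone, DESeq2 1.42.0, limma-voom 3.58.1, other scalings and filters, and left-out libraries. The groups compared, the gene lists and the rule for named genes were chosen with earlier results of these data known. Named are Rbmxl1 and Rbmx; the 12 protein-coding genes with the largest rise and fall among called genes that moved alike in 4 of 4 pairs with a mean of at least 5 CPM; 4 of other biotypes in each direction at 1 CPM or more; up to 4 called members of each list by smallest p, or all members where the text gives them; and the 6 most abundant called genes in each direction. The means behind these CPM limits are over the 8 libraries. A gene that rises can therefore pass through the knockdown, and one that falls through scramble. Sequences of promoters are from RefSeq (GRCm38.p6), of coding bases from GENCODE M21. Some genes that the naming rule covers are not reported here.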

Additional observations from a re-analysis of the deposited data

Results flagged for a closer look

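Among the 229 named genes, the 458 groups of 4 libraries were searched for a library that stood far from the other 3 (its gap to the nearest of them, over the range of all 4, above Dixon's critical value), which chance gives in about 1 group of 20. It was found in 20 of the 458, no more than that rate gives, so the libraries listed here need not be true outliers. In scramble the high ones were Abhd18 (replicate 4, 5.11 CPM against 4.53 to 4.61), Gm807 (replicate 2, 0.698 CPM against 0.575 to 0.585), 5430430B14Rik (replicate 1, 2.81 CPM against 1.76 to 1.81), Srsf6 (replicate 3, 302 CPM against 234 to 240.0), Hist1h4f (replicate 1, 56.4 CPM against 49.7 to 50.2), Mxi1 (replicate 1, 43.1 CPM against 40.7 to 41), Lfng (replicate 3, 6.76 CPM against 5.23 to 5.33) and Slc25a44 (replicate 1, 82.1 CPM against 72.5 to 73.2). The low ones in scramble were Srsf5 (replicate 4, 130.1 CPM against 161 to 165), Hist4h4 (replicate 3, 149 CPM against 166 to 169), Wsb1 (replicate 4, 75.5 CPM against 106 to 111) and Flna (replicate 1, 837 CPM against 983 to 1005). In Rbmxl1 knockdown the high ones were 5430430B14Rik (replicate 4, 1.41 CPM against 0.985 to 1.01), Son (replicate 3, 567 CPM against 503 to 509.7), Car12 (replicate 3, 151 CPM against 86.8 to 96.8), Lfng (replicate 3, 11.9 CPM against 8.15 to 8.7), Zfp180 (replicate 2, 74 CPM against 72.5 to 72.6) and Snap25 (replicate 2, 185 CPM against 142 to 148). The low ones in the knockdown were Fzd2 (replicate 4, 4.94 CPM against 9.11 to 9.95) and Scaf11 (replicate 1, 306 CPM against 316 to 317).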

How the results depend on the processing

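The count of 783 called genes became 1 without the replicate block, 426 with the 8 libraries only (407 of them shared), 1279 with DESeq2 (752 shared), 1243 with no filter on low counts and 30 in replicates 1 and 2 alone, and ran from 100 (without replicate number 4) to 1032 (without knockdown library 2) with a library or number left out. It was 743 and 821 with size-factor and upper-quartile scaling, 885 with a filter at a mean of 1 CPM, 767 with limma-voom (738 shared) and 992 in replicates 3 and 4 alone. Rbmxl1 against Rbmx knockdown, with 2 calls, gave 10 with DESeq2, 86 with no filter, 4 and 18 in the replicate sets alone, and 2 to 7 with a library or number left out (7 without replicate number 1, 4 without knockdown library 1). The difference between replicate sets, with 0 calls, gave 42 with DESeq2, 163 with no filter and 0 to 146 with a library or number left out, most without replicate numbers 1 (41) and 2 (146) and without knockdown libraries 1 (56) and 2 (97). Rbmx was not called without the block (0.35, adjusted p = 0.444) or in replicates 1 and 2 alone (0.47, adjusted p = 0.0661), and lay between 0.29 and 0.41 with a library left out. Rbmxl1 was called in every alternative. Of 155 called named genes beside Rbmxl1 and Rbmx, 0 were called without the block, 107 in the 8 libraries alone, 144 of 154 with DESeq2 and 37 to 130 with a library or number left out. None reversed in any alternative run. The cause of these shifts was not tested, beyond the fewer libraries in the left-out fits. Of the 4204 tested genes under 1 CPM 13 were called; the limit that depth sets was not tested.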
